A study of Mus musculus with 25 samples.

Results

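The 7 genes described here were grouped around the breakdown of triglyceride stored in lipid droplets: Pnpla2, Abhd5, G0s2, Lipe, Mgll, Plin2 and Pnpla8. They were picked by symbol and all 7 were measured in both tables of the series, out of 11867 genes in lung and 12661 in skin. G0s2 was put at the head of the group because it was lower in lung macrophages after neutrophil depletion, and Pnpla8 because it was higher in depleted lung fibroblasts. Those 2 differences are therefore given as descriptions, with no test.

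Fatty acids are released from a droplet by a chain of hydrolases. Pnpla2 encodes adipose triglyceride lipase, which removes the first fatty acid, Lipe encodes hormone-sensitive lipase, which acts on the diacylglycerol left over, and Mgll encodes monoacylglycerol lipase, which completes the chain. The protein of Abhd5 activates adipose triglyceride lipase, whereas that of G0s2 binds the same enzyme and inhibits it. The protein of Plin2 coats the droplets of most cells outside fat tissue, and Pnpla8 encodes a calcium-independent phospholipase A2 related to adipose triglyceride lipase. Macrophages that take up lipid are known to store it in droplets coated by Plin2.

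RNA was sequenced from macrophages and fibroblasts sorted out of the lung and skin of C57BL/6 mice. The macrophage gates required CD45, CD68 and F4/80, with CD11c- interstitial cells taken in lung, and the fibroblast gates required PDGFRA without CD45, CD31 or EPCAM. Depleted mice had the genotype Mrp8_CRE; Rosa26_DTR, in which the promoter of Mrp8 (S100a8) drives Cre and thereby expression of a diphtheria toxin receptor from Rosa26. Control mice had the genotype Mrp8_WT; Rosa26_DTR, so they carried the receptor allele without Cre, and both genotypes were given diphtheria toxin (10 µg per kg, intraperitoneal) over 7 days. The S100a8 promoter is most active in neutrophils, but other myeloid cells can use it. No label ties a library to an animal or an age, so the p-values measure the spread between libraries, which may be technical. In lung each cell type had 3 libraries per genotype. In skin there were 4 macrophage libraries of depleted mice and 3 of controls, while fibroblasts had 3 per genotype.

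The values are the authors' normalised signal, and each organ was normalised separately, so levels are not compared between organs. Lung libraries held 124075 to 385925 estimated reads and skin libraries 6553115 to 27259903, so that 1 read stood for 2.997 to 6.81 units in lung and 0.0371 to 0.162 units in skin. Of the reads of lung macrophages, 3.55 to 3.95% in depleted and 1.99 to 3.21% in control libraries fell on 16 macrophage genes, against at most 0.0785% in lung fibroblasts. Depleted skin macrophages 1, 2, 3 and 5 and control skin macrophages 3 had 2.48 to 3.49% there. The libraries labelled control skin macrophages 1 and 5 had 0.00667% and 0.00668%, while 11.2% and 13.5% of their reads fell on 16 fibroblast genes. The title of library 5 carries the code MFIBRO, although its cell type field says macrophages. Those 2 libraries were kept apart from every comparison, which leaves 1 control library of skin macrophages. In lung macrophages, 14 alveolar macrophage genes took 0.584 to 1.04% of reads in depleted and 0.577 to 0.875% in control libraries. In lung fibroblasts they took at most 0.0591%. The part of alveolar macrophages in the lung macrophage libraries was not tested. Bulk libraries do not tell fewer cells of a kind from less RNA per cell.

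G0s2 is a short gene on the minus strand of chromosome 1, at chr1:193272161-193273217 of GRCm38, inside the transcribed region of Lamb3 on the opposite strand. The deposited values do not say whether strand was used in counting. Lamb3, a laminin chain named here for this overlap alone, had 0 estimated reads in each depleted lung macrophage library and 1 to 1.01 in each control one, where G0s2 had 13 to 18 reads in depleted and 157 to 225 in control libraries. Plin2 lies on the minus strand of chromosome 4 at chr4:86648386-86670060. The start regions of these 2 genes are shown because they differed in opposite directions between the cell types of depleted animals in both organs. Both come from RefSeq on GRCm38.p6, cover 250 bases before to 50 after the start, and read 5′ to 3′ in the direction of the gene, with searched motifs in capitals.
G0s2, chr1:193273139-193273438, minus strand: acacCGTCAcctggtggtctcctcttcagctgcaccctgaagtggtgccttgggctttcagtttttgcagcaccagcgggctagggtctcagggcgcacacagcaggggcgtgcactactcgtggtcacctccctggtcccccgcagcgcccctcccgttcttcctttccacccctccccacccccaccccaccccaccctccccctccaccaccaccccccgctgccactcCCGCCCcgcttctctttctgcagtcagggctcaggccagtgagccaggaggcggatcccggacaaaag
Plin2, chr4:86670010-86670309, minus strand: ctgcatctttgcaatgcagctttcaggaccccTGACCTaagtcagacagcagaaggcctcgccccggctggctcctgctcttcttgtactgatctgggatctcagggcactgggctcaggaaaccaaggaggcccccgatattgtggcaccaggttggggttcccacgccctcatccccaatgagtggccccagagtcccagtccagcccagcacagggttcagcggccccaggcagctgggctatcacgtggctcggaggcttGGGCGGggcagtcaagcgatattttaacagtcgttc
In the G0s2 window the capitals mark the cAMP response element half-site TGACG, read on the other strand at -246, and the Sp1 motif GGGCGG, also read on the other strand, at -18. In the Plin2 window they mark the nuclear receptor half-site AGGTCA, read on the other strand at -218, and GGGCGG at 14. Both strands were searched, together with TATAAA and the C/EBP motif TTGCNNAA, which matched neither window. Of 32851 mouse promoter windows of the same length, 20.8% hold TGACG, 16.3% AGGTCA and 35.7% GGGCGG, so these matches describe the windows and no more.

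G0s2, the inhibitor, was low in lung macrophages of depleted mice. Its normalised value was 114, 83.8 and 85.4 in depleted libraries 1 to 3, against 711, 676 and 1036 in control libraries 1 to 3. The groups did not overlap, and the lowest control library stood far above the highest depleted one. The means were 94.3 ± 16.9 in depleted and 808 ± 199 in control lung macrophages (SD, n = 3 each). The log2 fold change was -3.07 with a standard error of 0.27. This is the contrast for which G0s2 was chosen, and 59 of 11867 genes, or 0.497%, were called in it, where called means a limma adjusted p below 0.05. That count was 11 without control library 2 and 12 without control library 3, and 0 in limma without a variance trend, with 848 genes at an unadjusted p below 0.05.

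**Figure D1:**
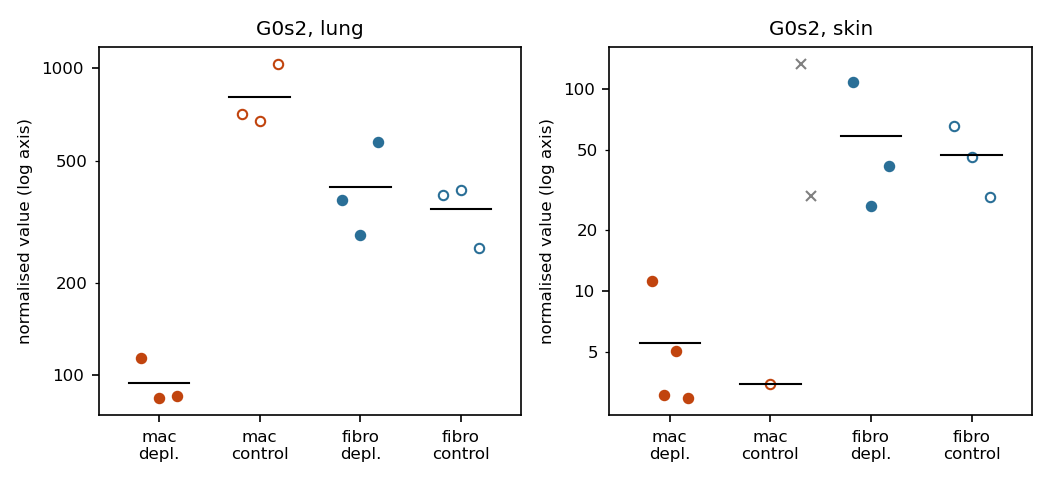
Normalised value of G0s2 in each library of lung and skin (log axis), with depleted groups left of control groups. Filled circles are depleted and open circles control libraries, black lines are group means, and grey crosses are the 2 skin libraries kept apart. In lung the depleted macrophages lie between 83.8 and 114, below all other libraries.

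The genotypes overlapped in G0s2 in lung fibroblasts. Depleted fibroblasts had 371, 286 and 575 and control fibroblasts 385, 402 and 258. The means were 411 ± 149 in depleted and 348 ± 78.2 in control fibroblasts (SD, n = 3 each). The log2 fold change was 0.20 with a standard error of 0.26 (limma adjusted p = 0.988). In order of level, lung G0s2 was therefore highest in control macrophages, then in depleted fibroblasts, control fibroblasts and depleted macrophages. The 2 fibroblast groups are neighbours in that order whose spreads overlap, while each macrophage group lay outside the range of all fibroblast libraries. Subtracting the depletion effect in fibroblasts from that in macrophages gave -3.27 on the log2 scale, with a standard error of 0.41. It contains the contrast that chose G0s2, so it is given with no p. For that difference 2 of 11867 genes were called, or 0.0169%, and nothing is read from it for G0s2.

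Transcripts of neutrophils moved with G0s2 in lung macrophages. The 21 measured genes of a neutrophil list took 0.210, 0.233 and 0.240% of the reads in depleted libraries and 1.23, 0.999 and 2.002% in control libraries. Of the 21 genes, 14 fell and none rose (limma with a variance trend, adjusted p below 0.05), beside 0.497% of all genes called in this contrast. Without a variance trend no gene was called. The median log2 fold change of the list was -1.999, beside 0.04 over all genes. S100a8, a calgranulin that makes up much of the neutrophil cytosol and whose promoter drives the Cre, averaged 1041 ± 140 in depleted and 6517 ± 3653 in control macrophages (log2 fold change -2.51 ± 0.29, SE). Retnlg fell by 2.81 ± 0.24 and Cxcr2, a chemokine receptor of neutrophils, by 2.94 ± 0.39 on the log2 scale (SE), though the call for Cxcr2 was lost without control library 2 or 3, at -2.78 and -2.84. Ly6g, the gene of a neutrophil surface antigen, did not pass the test, at 29.2 ± 12.2 in depleted and 22.0 ± 5.59 in control macrophages (SD). All 21 genes had reads in both groups of macrophages. Markers of other cells differed too. The 12 lung epithelial genes took 0.944 to 2.21% of reads in depleted and 0.207 to 0.892% in control macrophages, with 3 of 12 called higher and all 12 above 0. The 6 measured lymphocyte and mast cell genes took 0.00887 to 0.0403% in depleted and 0.0543 to 0.144% in control macrophages, with 2 called lower. The 15 measured fibroblast genes took 0.0443 to 0.0525% in depleted and 0.0336 to 0.0386% in control macrophages, with none called and a median log2 fold change of 0.60. Of 12 monocyte genes 1 was called lower, while the list took 0.781 to 1.36% in depleted and 0.650 to 1.19% in control macrophages, which overlap.

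Set against the neutrophil list, G0s2 differed less. For every 100 reads of the neutrophil list there were 4.13, 3.10 and 2.83 reads of G0s2 in depleted macrophages, against 5.46, 5.84 and 4.58 in control macrophages. The ratio, a description because it contains the values that chose G0s2, was lower in each depleted library than in each control library. The gap was smaller than that of G0s2 itself. Lung fibroblasts stood far from both, with 368 to 663 reads of G0s2 per 100 reads of the list in depleted and 285 to 761 in control libraries. Their neutrophil list took 0.00797 to 0.00929% of reads in depleted and 0.00583 to 0.0102% in control libraries, with Retnlg at 0 reads in each of the 6. So G0s2 was measured at 258 to 575 units in libraries whose neutrophil genes are near 0. The part of neutrophil, epithelial, lymphocyte, fibroblast or monocyte RNA in the G0s2 level of macrophage libraries was not tested.

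**Figure D2:**
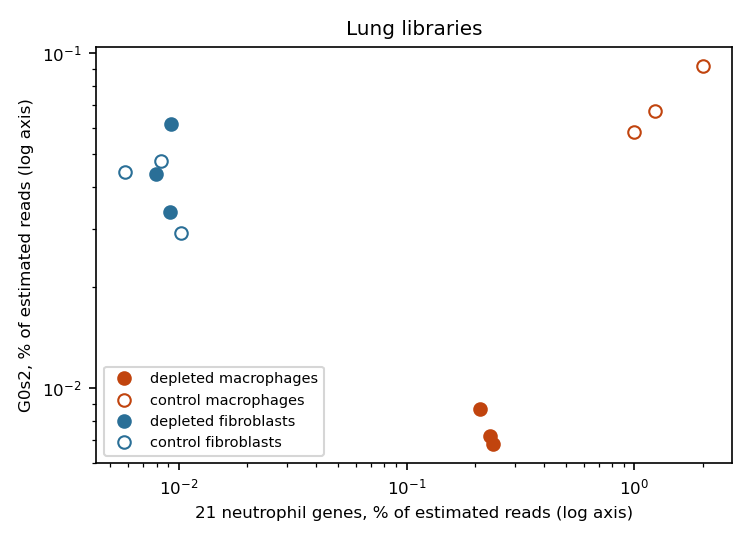
Share of estimated reads on G0s2 (vertical, percent, log axis) against the share on 21 neutrophil genes (horizontal, percent, log axis) in the 12 lung libraries. Control macrophages (open orange) lie at the upper right, depleted macrophages (filled orange) at the lower middle, and the 6 fibroblast libraries (blue) at the upper left with neutrophil shares of at most 0.0102%.

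In skin the macrophages held little G0s2 under either genotype. Depleted skin macrophages 1, 2, 3 and 5 had 11.2, 3.09, 5.08 and 2.97 and control skin macrophages 3 had 3.51, which lies within the depleted range. The log2 fold change was 0.39 with a standard error of 1.26 (limma adjusted p = 0.947), and with 1 control library the spread came from the depleted libraries. S100a9 was low in these cells too, at 0.573 ± 0.724 in depleted macrophages (SD, n = 4) and 8.32 in the control library. The 13 measured neutrophil genes took 0.0246 to 0.0407% of reads in depleted macrophages and 0.0404% in the control library. Of these genes, 5 had log2 fold changes above 0 and 8 below. Skin fibroblasts had 108, 26.3 and 41.6 of G0s2 in depleted and 65.7, 46.2 and 29.3 in control libraries. The groups overlapped fully (log2 fold change 0.14 ± 0.55, SE, limma adjusted p = 0.984). The order in skin was depleted fibroblasts at 58.6 ± 43.3, control fibroblasts at 47.1 ± 18.2 (SD, n = 3 each), depleted macrophages at 5.60 ± 3.89 (SD, n = 4) and the control macrophage library at 3.51. In that order only the step from fibroblasts to macrophages left the groups apart. The skin effect in macrophages minus that in fibroblasts was 0.25 ± 1.15 (SE, limma adjusted p = 0.983), and no gene was called for it, 0.0% of 12661, with 535 at an unadjusted p below 0.05. The 2 libraries kept apart had 133 and 29.6, above every macrophage library used.

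Between the cell types of the skin, G0s2 and Plin2 differed in opposite directions. In depleted skin, G0s2 was lower in macrophages than in fibroblasts, with a log2 difference of -3.09 ± 0.70 (SE, limma adjusted p = 0.00922, 4 against 3 libraries). The highest macrophage library, at 11.2, stood below the lowest fibroblast library, at 26.3. Without depleted skin fibroblasts 2, the library with 108, the difference was -2.53 and no longer called (adjusted p = 0.0690). In lung the same comparison ran both ways. G0s2 was below fibroblasts in depleted lung macrophages, at -2.06 ± 0.30, and above them in control lung macrophages, at 1.21 ± 0.28 on the log2 scale (SE), both given as descriptions. With quantile normalisation the control value was 0.80.

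Pnpla2, the lipase that G0s2 inhibits, was scarce in lung. It had 40.0, 3.10 and 26.5 in depleted and 56.5, 46.4 and 50.5 in control macrophages. The depleted values all lay below the control values, on 6, 0 and 4 estimated reads against 12, 15 and 8, and a library with 0 reads allows up to 3. The log2 fold change of -1.64 ± 0.66 (SE) did not pass the test (limma adjusted p = 0.464). Without depleted library 2, the one with 0 reads, it was -0.63, and leaving out each of the others in turn gave down to -2.28. Of the 6 genes not chosen on this contrast, Pnpla2 was the 1 whose groups did not overlap in lung macrophages, beside 12.2% of all genes. In lung fibroblasts Pnpla2 averaged 32.9 ± 16.9 in depleted and 49.2 ± 19.0 in control libraries (SD), with overlap.

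In skin macrophages Pnpla2 had 0.243, 32.3, 37.9 and 46.7 in depleted libraries and 33.8 in the control library. Depleted library 1 stood apart with 1 read, and the other 3 lay around the control value. That library is also the shallowest skin library, with 6553115 estimated reads, and it likewise held the lowest Mgll of the macrophages. In it 22.2% of genes had 0 reads, against 4.49 to 7.39% in the other depleted skin macrophage libraries. Pnpla2 in skin fibroblasts was 29.1, 4.95 and 18.6 in depleted and 10.9, 21.5 and 17.0 in control libraries, which overlap. No comparison called Pnpla2.

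Abhd5, the activator, overlapped between genotypes throughout. In lung macrophages it averaged 39.7 ± 21.6 in depleted libraries and 45.6 ± 9.75 in controls (SD, n = 3 each). In lung fibroblasts it averaged 39.7 ± 23.1 in depleted and 41.4 ± 13.1 in control cells. Depleted skin fibroblasts had 78.0 ± 20.3 and control skin fibroblasts 64.5 ± 19.9, and depleted skin macrophages 59.0 ± 21.4 beside 80.9 in the control library. Groups overlapped in all 4 comparisons of depleted with control cells, and the limma adjusted p was 0.878 to 0.988. The interval around a log2 fold change of -0.30 in lung macrophages still ran from -1.32 to 0.72 (95%), a range these libraries cannot narrow.

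The RNA of inhibitor and enzyme can be compared within a library when reads are divided by exon length. The proteins were not measured. Reads of G0s2 per kilobase were 9.87, 93.6 and 11.2 times those of Pnpla2 in depleted lung macrophages 1, 2 and 3, and 43.6, 50.4 and 71.2 times in control libraries 1, 2 and 3. The value of 93.6 comes from the library with 0 reads of Pnpla2, which enters with an added 0.5 read, and the other 2 depleted libraries lay below all control libraries. In depleted skin macrophages 3 of 4 libraries had ratios of 0.221 to 0.465 and the control library 0.361, while the library with 1 read of Pnpla2 had 161, whereas skin fibroblasts had 7.76 to 18.4 in depleted and 5.96 to 20.8 in control libraries. Set against the coat gene, G0s2 had 0.362 to 0.554 times the reads per kilobase of Plin2 in depleted lung macrophages and 3.90 to 12.1 times in control ones. Lung fibroblasts had 6.66 to 13.6 times in depleted and 7.02 to 10.2 times in control libraries. The ratios in lung macrophages contain the G0s2 values on which the gene was chosen, so they are given as descriptions.

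Plin2, the droplet coat gene, was the most abundant of the 7 per kilobase in depleted macrophages of both organs. Its value in lung macrophages was 877, 934 and 621 in depleted and 237, 698 and 787 in control libraries. Control library 1 lay low and the other 2 control libraries lay within the depleted range. The log2 fold change of 0.65 ± 0.30 (SE) did not pass the test (limma adjusted p = 0.565). It was 0.11 without control library 1 and 0.97 without control library 3. Depleted skin macrophages had 408, 386, 404 and 424, a narrow range above the 243 of the control library. That difference of 0.74 ± 0.25 (SE) rested on 1 control library and was not called (limma adjusted p = 0.569).

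Plin2 was higher in macrophages than in fibroblasts in every comparison of the cell types. In depleted lung the means were 811 ± 167 in macrophages and 170 ± 3.14 in fibroblasts (SD, n = 3 each), and the log2 difference was 2.22 ± 0.24 (SE, limma adjusted p = 1.46e-06). In control lung they were 574 ± 295 in macrophages and 162 ± 58.0 in fibroblasts, with a log2 difference of 1.71 ± 0.39 (limma adjusted p = 0.0022, and 0.0689 without a variance trend). In depleted skin macrophages had 405 ± 15.2 (SD, n = 4) and fibroblasts 69.1 ± 11.5 (SD, n = 3), with a log2 difference of 2.55 ± 0.21 (limma adjusted p = 1.71e-05). No macrophage library overlapped the fibroblasts of its genotype. In fibroblasts Plin2 did not differ by genotype beyond the spread, at 69.1 ± 11.5 in depleted and 58.0 ± 21.3 in control skin (SD, n = 3 each).

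**Figure D3:**
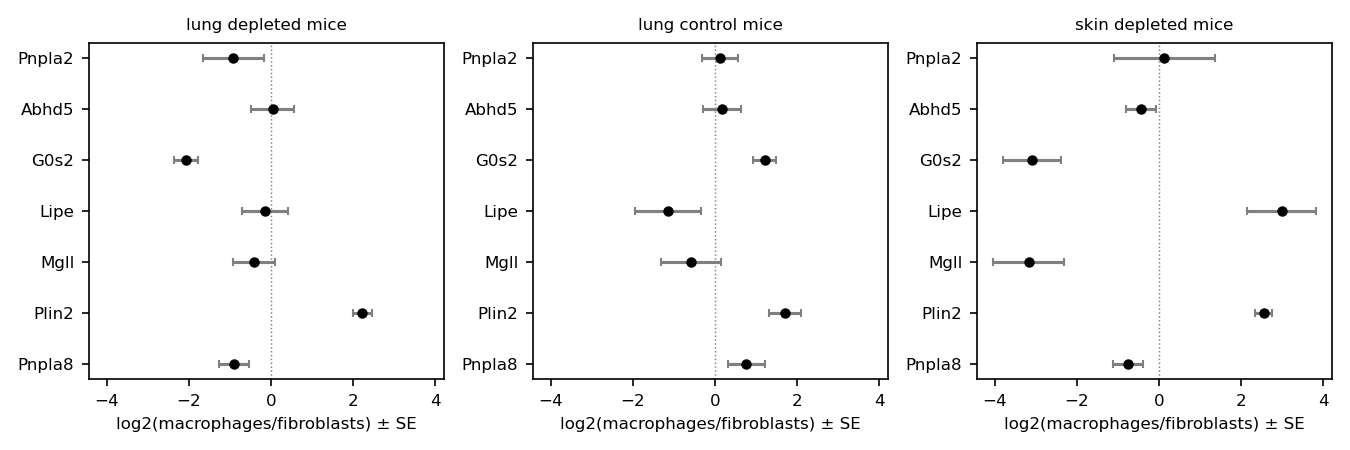
Log2 difference, macrophages over fibroblasts, of the 7 genes in depleted lung, control lung and depleted skin, with bars of 1 standard error. Plin2 lies right of 0 in all panels, at 1.71 to 2.55, and G0s2 lies left of 0 in both depleted groups and right of 0 in control lung.

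The next hydrolases of the chain, Lipe and Mgll, differed between the cell types of depleted skin. In lung neither was called between cell types, and the difference between organs was not tested. Lipe had 37.3, 35.6, 17.9 and 30.3 in depleted skin macrophages and 3.37, 0.0869 and 10.7 in depleted skin fibroblasts. Every macrophage library was above every fibroblast library, with a log2 difference of 2.98 ± 0.84 (SE, limma adjusted p = 0.0259). Mgll had 0.243, 3.84, 11.3 and 1.13 in the macrophages and 29.9, 26.1 and 37.4 in the fibroblasts. Here every macrophage library was below every fibroblast library, with a log2 difference of -3.17 ± 0.87 (SE, limma adjusted p = 0.0235). Both calls depend on single libraries. That of Lipe was lost without depleted fibroblasts 2 or macrophages 2 or 5, where the difference was 2.89 to 3.08. That of Mgll was lost without depleted fibroblasts 2 or 5 or macrophages 5, where it was -2.92 to -3.19. Neither was called with a pseudocount 10 times smaller, at 3.93 for Lipe and -3.89 for Mgll.

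Of the 7 genes, 4 were called in that comparison (Plin2, Lipe, G0s2 and Mgll), beside 24.0% of the 12079 genes tested, and the same 4 had groups that did not overlap, beside 34.1%. In lung, of the 5 genes not chosen on lung values, Plin2 alone was called, beside 23.0% of all genes in depleted and 23.2% in control mice. Plin2 was likewise the 1 of those 5 whose groups did not overlap, beside 37.6% of all genes in depleted and 36.5% in control mice. With libraries scaled to equal totals the genes called higher in macrophages made up 31.7% of calls in depleted lung, 37.0% in control lung and 35.5% in depleted skin, in place of 54.2, 52.7 and 47.3%, and the median of all genes moved to -0.48, -0.41 and -0.41. The signs given here for Plin2, G0s2, Lipe and Mgll held under both scalings in depleted skin, as did those of Plin2 and G0s2 in lung.

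In lung, by contrast, Lipe and Mgll rested on few reads. Lipe had 15.4, 27.9 and 20.6 in depleted macrophages, on 2 to 4 reads, and 2.26, 22.5 and 2.97 in control macrophages, on 0, 7 and 0 reads. Control library 2 lay within the depleted range, and the log2 fold change of 1.68 ± 0.89 (SE) was not called (limma adjusted p = 0.666). Mgll had 21.5, 21.7 and 26.5 in depleted and 24.9, 25.5 and 2.97 in control macrophages, with overlap. In fibroblasts Mgll averaged 32.9 ± 12.8 in depleted and 20.4 ± 5.10 in control lung (SD), and 31.1 ± 5.76 in depleted and 28.2 ± 0.800 in control skin. In control skin macrophages 3 Mgll stood at 18.6, above the depleted range, and the log2 fold change of -2.47 ± 1.49 (SE) was not called (limma adjusted p = 0.840).

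Pnpla8, the phospholipase, was higher in depleted lung fibroblasts, the contrast for which it was chosen. It had 112, 83.6 and 102 in depleted and 30.0, 26.0 and 44.6 in control fibroblasts, on 16, 21 and 29 against 5, 4 and 12 estimated reads. The groups did not overlap, and the log2 fold change was 1.56 with a standard error of 0.41. In that contrast 1 of 11867 genes was called, or 0.00843%, and that gene was not Pnpla8. Nothing is read from the count for Pnpla8. Of the other 6 genes none had groups that did not overlap in lung fibroblasts, beside 9.2% of all genes. Its gene spans a processed pseudogene, Gm2027, on the same strand, so its reads are uncertain where the 2 share sequence. Of the marker lists, 7 adipocyte genes took 0.0128 to 0.0172% of reads in depleted and 0.0206 to 0.0274% in control lung fibroblasts, with none called. The 15 measured fibroblast genes took 0.894 to 1.17% in depleted and 1.22 to 1.61% in control libraries, and 14 alveolar macrophage genes 0.0458 to 0.0591% in depleted and 0.0138 to 0.0380% in control libraries, with none called in either list. Of 12 lung epithelial genes 1 was called higher in depleted fibroblasts, with a median log2 fold change of 0.89, and they took 0.202 to 0.578% of reads there, against 0.0572 to 0.226% in control fibroblasts. The part of these cells in the Pnpla8 level was not tested.

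In the other cells the Pnpla8 groups overlapped. Lung macrophages had 46.1, 71.4 and 44.2 in depleted and 52.0, 76.4 and 44.5 in control libraries, which overlap. Depleted skin fibroblasts averaged 69.8 ± 19.0 and control ones 65.0 ± 8.06 (SD, n = 3 each), with a log2 fold change of 0.07 ± 0.36 (SE). The difference between the lung effects, macrophages minus fibroblasts, was -1.66 ± 0.58 on the log2 scale (SE). In depleted lung Pnpla8 had a log2 difference, macrophages minus fibroblasts, of -0.89 ± 0.36 (SE), and of -1.34 with equal library totals. These values share the depleted fibroblast libraries on which Pnpla8 was chosen, so they are given as descriptions.

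**Figure D4:**
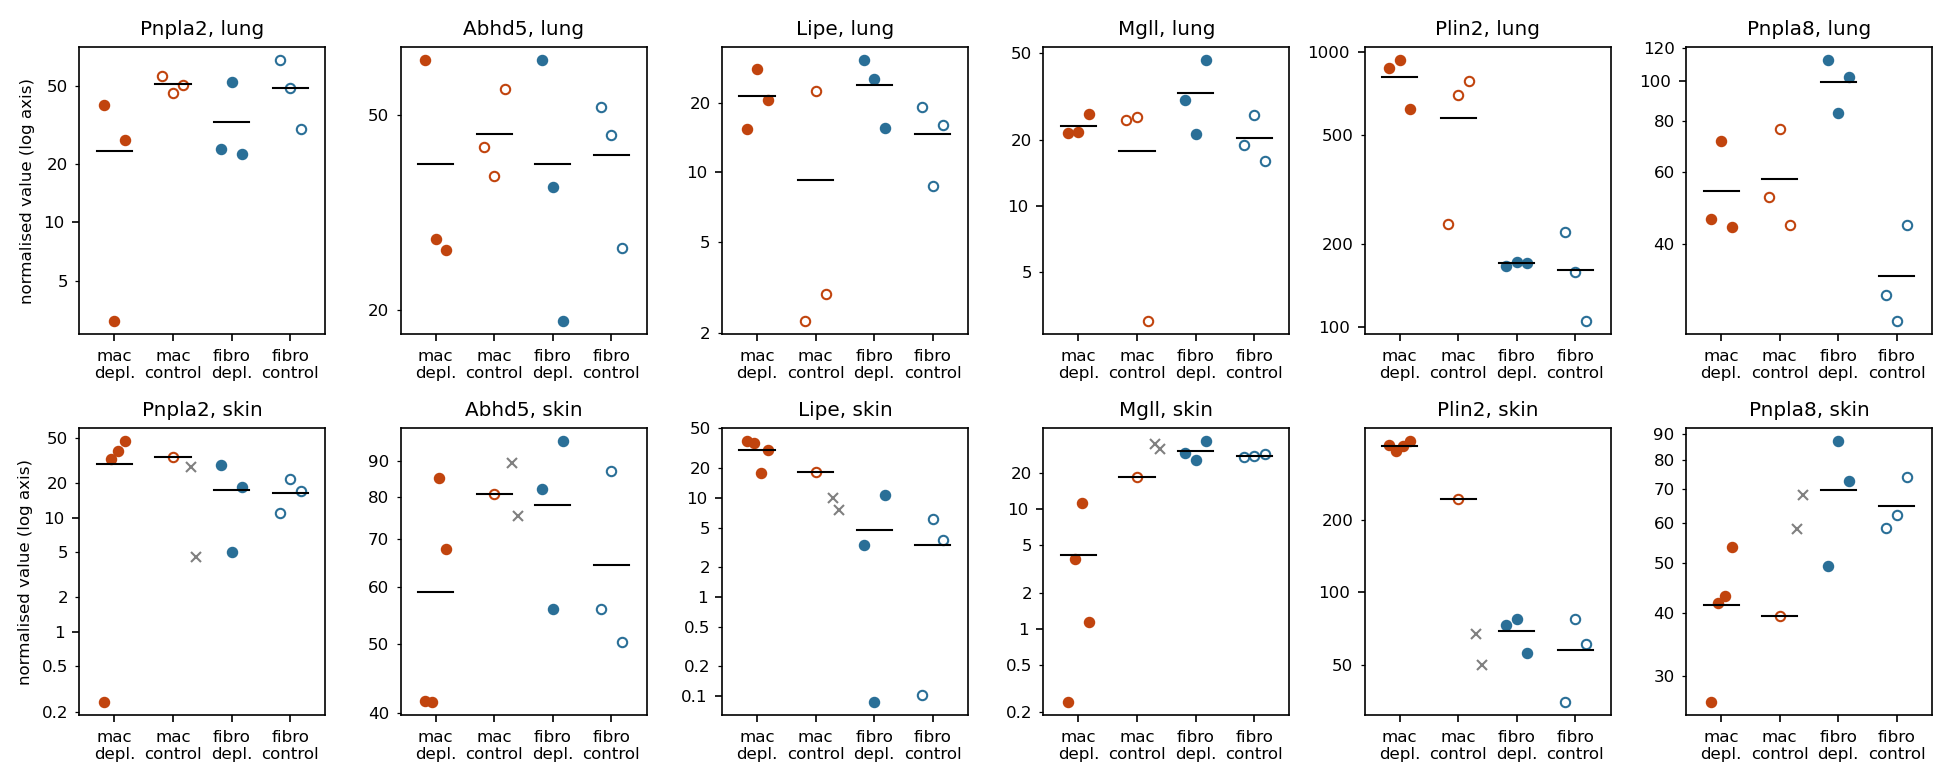
Normalised value (log axes, each panel with its own range) of Pnpla2, Abhd5, Lipe, Mgll, Plin2 and Pnpla8 by library in lung (top) and skin (bottom). Symbols are as in the plot of G0s2. Plin2 is higher in macrophages of both organs, Mgll lower and Lipe higher in depleted skin macrophages, and Pnpla8 higher in depleted than in control lung fibroblasts.

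The calls of the 7 genes by genotype are gathered here for the 4 comparisons of depleted with control cells. Leaving out G0s2 in lung macrophages and Pnpla8 in lung fibroblasts, which were chosen there, none of the other 6 was called in either cell type, beside 0.497% and 0.00843% of all genes. In skin no gene of the whole table was called by limma, 0.0% of 11780 in fibroblasts and 0.0% of 12028 in macrophages, with 283 and 834 genes at an unadjusted p below 0.05, or 2.4% and 6.93%, Plin2 being 1 of the 834. None of the 7 had groups that did not overlap in skin fibroblasts, beside 8.47%. With 1 control library 2 of 7 did in skin macrophages, Plin2 and Mgll, beside 47.3%. Without a variance trend the calls in skin were also 0. The median log2 fold changes of all genes were 0.04 in lung macrophages, -0.01 in lung fibroblasts, -0.10 in skin macrophages and 0.03 in skin fibroblasts.

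**Figure D5:**
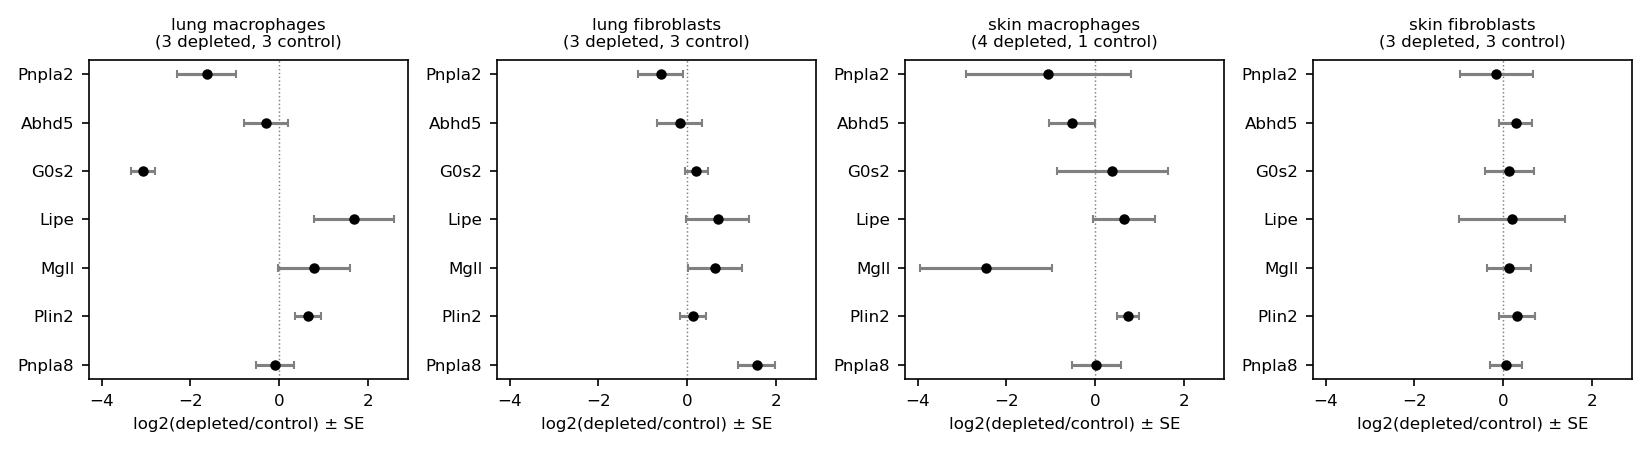
Log2 fold change, depleted over control, of the 7 genes in lung macrophages, lung fibroblasts, skin macrophages and skin fibroblasts, with bars of 1 standard error. G0s2 in lung macrophages, the contrast that chose it, lies at -3.07, and most other genes lie within 1 or 2 errors of 0.

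Other genes of lipid handling were read from 8 lists. In lung macrophages 10 regulators of adipose triglyceride lipase were measured, G0s2 included, and none of the others was called. Hilpda, a further inhibitor of the same lipase named here for that role, had 83.8 ± 16.9 in depleted and 75.5 ± 23.0 in control macrophages (SD). None of 13 droplet coat genes, 17 other lipases, 18 genes of triglyceride synthesis and 20 of fatty acid oxidation was called. The same held for 14 genes of fatty acid uptake and binding and 16 PPAR targets. The medians of these lists lay between -0.05 and 0.19 beside 0.04 over all genes. With 0.497% of all genes called in this contrast, nothing about the lists is read from the lack of calls. The PPAR targets are genes turned on by the nuclear receptors that sense fatty acids.

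Among 22 genes of lipolysis signalling, Hcar2 fell in depleted lung macrophages. It encodes the receptor for hydroxybutyrate and niacin, which restrains lipolysis in fat cells and is also found on neutrophils and macrophages. Its value was 9.12 ± 0.254 in depleted macrophages, on 1 read in each library, and 97.4 ± 36.1 in control ones (SD, n = 3 each), on 63 reads in all. The log2 fold change was -3.21 ± 0.58 (SE, limma adjusted p = 0.000937), and the ratio of read shares was 0.0648 with an exact 95% interval of 0.0130 to 0.198, which covers counting error only. The call was lost without control library 2 or 3, at -3.50 and -2.95. No gene of the 8 lists was called in lung or skin fibroblasts between depleted and control cells. Over all genes 0.00843% were called in lung fibroblasts and 0.0% in skin fibroblasts, so nothing is read from this for the lists.

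Macrophages and fibroblasts differed in many of these genes. In depleted lung 6 of 14 uptake and binding genes were called higher in macrophages and 3 lower, beside 23.0% of all genes called in either direction, with a median log2 difference of 1.32 beside -0.06 over all genes. In control lung 5 were called higher and 3 lower, beside 23.2%, with a median of 1.03 beside -0.08. Cd36, the fatty acid scavenger receptor, had 410 ± 135 in macrophages and 37.1 ± 18.5 in fibroblasts of depleted lungs (SD, n = 3 each), a log2 difference of 3.52 ± 0.39 (SE, limma adjusted p = 2.58e-06). Ucp2, a mitochondrial carrier and PPAR target, was 6.23 ± 0.52 higher on the log2 scale (SE). Lpl, which frees fatty acids from lipoproteins, had 303 ± 60.4 in macrophages and 78.3 ± 24.8 in fibroblasts.

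Angptl4, an inhibitor of that lipase, went the other way. It had 2 reads over the depleted macrophage libraries and 167 over the fibroblast libraries, a ratio of read shares of 0.0123 (exact 95% interval 0.00148 to 0.0452, counting error only). In control lung it had 12.2 ± 2.32 in macrophages and 221 ± 36.9 in fibroblasts (SD, n = 3 each), a log2 difference of -4.07 ± 0.42 (SE, limma adjusted p = 1.36e-07). Hadh, an enzyme of fatty acid oxidation, was lower in macrophages, with log2 differences of -2.53 ± 0.43 in depleted and -2.04 ± 0.41 in control lung (SE). It was 1 of 3 oxidation genes called lower in depleted lung, of 20 measured, with none higher and a median of 0.15, beside 23.0% of all genes called.

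In depleted skin, where 24.0% of all genes were called, 6 of 13 uptake and binding genes were called higher and 2 lower in macrophages, with a median log2 difference of 1.52 beside -0.11 over all genes. Of 16 other lipases 4 were called higher and 1 lower, with a median of 0.19. Nceh1, which hydrolyses cholesteryl esters, had 167 ± 51.2 in macrophages (SD, n = 4) and 11.3 ± 3.57 in fibroblasts (SD, n = 3). Lipa, the acid lipase of lysosomes, had 286 ± 42.5 in macrophages and 86.7 ± 25.7 in fibroblasts, with log2 differences of 3.77 ± 0.36 for Nceh1 and 1.74 ± 0.26 for Lipa (SE). Soat1, which esterifies cholesterol, had 148 ± 27.1 in macrophages and 32.6 ± 7.77 in fibroblasts (2.15 ± 0.29 on the log2 scale, SE), and all 3 were called. Of 11 coat genes 4 were higher and 2 lower, with a median of 0.31, Plin2 among the higher ones and Rab18, a droplet GTPase, among the lower ones at -0.88 ± 0.21 (SE, limma adjusted p = 0.0110, and 0.100 without a variance trend). Of 21 oxidation genes 1 was called, higher in macrophages, beside the same 24.0%.

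Adipocytes use several of the 7 genes, so their markers were read as well. In lung 7 of 16 adipocyte genes were measured, and they took 0.0229 to 0.0343% of reads in depleted and 0.0228 to 0.0384% in control macrophages. In skin 5 were measured, at 0.0198 to 0.0421% in depleted and 0.0201 to 0.0323% in control fibroblasts. The ranges of depleted and control libraries overlapped in both. Skin fibroblasts also held keratinocyte and sebocyte genes, 13 measured, at 0.203 to 1.66% in depleted and 0.373 to 0.491% in control libraries. The 16 fibroblast genes took 7.10 to 9.82% in depleted and 10.3 to 13.6% in control skin fibroblasts. Of these, 15 had log2 fold changes below 0 and none was called, beside 0.0% of all genes. The part of this difference in the levels of the 7 genes was not tested.

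The genes closest in profile to G0s2 were sought among those with at least 0.25 of its mean level, by the root mean square difference of log2 values after centring each gene. Over the 12 lung libraries Ifitm1 was nearest of 1458 genes, at 0.79, followed by Ppp2ca, Cflar, Stat3 and Clk1 at 0.89 to 0.91. Against a spread of 1.15 of G0s2 around its own mean, and a median distance of 1.36 over all genes, none followed G0s2 closely. Ifitm1 had 95.2 ± 5.30 in depleted and 217 ± 49.3 in control macrophages, and 183 ± 52.0 in depleted and 200 ± 61.7 in control fibroblasts (SD, n = 3 each). Over 11 skin libraries Gstm5 was nearest of 9814 genes, at 0.34 beside a median of 1.91, followed by Tmem9, Tns2, Nedd4 and Megf6 at 0.42 to 0.51. Gstm5, a glutathione transferase gene, had 25.4 ± 20.7 in depleted macrophages (SD, n = 4), 15.8 in the control library, and 165 ± 62.0 in depleted and 145 ± 34.1 in control fibroblasts (SD, n = 3 each).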

How the data were processed

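Bulk RNA was sequenced from 25 libraries. The submitters' processing notes name CASAVA 1.8, cutadapt 1.7.1, limma 3.46, RSEM 1.7.1 and mm10, without roles. The authors deposited 1 table per organ of normalised signal per gene and library, by a method not stated. Each deposited signal was taken to be a library constant times the estimated reads plus 0.5, with the lowest signal of a library standing for no reads. The quoted reads were recovered under that assumption. They were whole, to a tolerance of 0.01, for 70.0 to 82.2% of genes in lung and 27.4 to 58.0% in skin, so no count model was used. Groups follow the genotype and cell type labels. limma 3.58.1 (R 4.3.3), two-sided and with a variance trend, was fitted to log2 of the signal plus a pseudocount of 1.04 in lung and 1.001 in skin, a scale that understates changes of low genes. A gene was tested if it reached 1 part in 1000000 of the total in at least the smaller group's number of libraries. Benjamini-Hochberg adjustment ran over all genes tested, and called means an adjusted p below 0.05. The fits were also run on simulated data with the same spread for every gene and changes only in genes above the median level. Such data do not cover low genes. Reads per kilobase use the exon union of GENCODE M21 (GRCm38). Symbols were found for 11829 lung and 12641 skin identifiers.

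The 7 genes, the lists and the tests were chosen with earlier results of these data known. Besides the 7, the rule names at most 4 genes of lowest p per list, fixed neutrophil markers and the 5 genes nearest to G0s2 in each organ. Hilpda and Lamb3 were named after their values were seen. Alternatives changed the pseudocount, filter, scaling, variance trend and model, blocked on replicate numbers, restored the 2 libraries kept apart, or left out 1 library at a time.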

Additional observations from a re-analysis of the deposited data

Results flagged for a closer look

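The depletion effect on G0s2 in lung macrophages minus that in lung fibroblasts was -3.27 on the log2 scale, a difference between cell types under 1 contrast. It contains the contrast that chose the gene.

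The 2 libraries labelled control skin macrophages 1 and 5, outside every comparison, held values above control skin macrophages 3 for 3 genes. G0s2 was 133 and 29.6 there, against 3.51. Mgll was 35.3 and 32.3, against 18.6, and Pnpla8 was 58.6 and 68.4, against 39.5. These lie in or near the ranges of skin fibroblasts.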

How the results depend on the processing

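The 59 calls in lung macrophages became 38 with a pseudocount 10 times larger, 27 with quantile normalisation, 18 in a 4-group model and 0 without a variance trend. The 1 call in lung fibroblasts became 0 with a filter on the mean of at least 50 times the pseudocount, with quantile normalisation, without the trend and in the 4-group model, and 2 with equal library totals. In skin macrophages the 0 calls became 62 with no filter, 1 with that mean filter and 2 with quantile normalisation. The mean filter, which tests fewer genes, left 1441, 1341 and 1421 calls between cell types in depleted lung, control lung and depleted skin. The 2 calls for the difference of lung effects became 12 with the larger pseudocount, 7 with the mean filter, 1 with quantile normalisation and 0 without the trend. Between cell types in depleted skin, a pseudocount 0.1 times as large left Lipe at 3.93 (limma adjusted p = 0.0621) and Mgll at -3.89 (limma adjusted p = 0.0574), and in control lung Plin2 was not called without the trend. The description of G0s2 in control lung, 1.21, became 0.80 with quantile normalisation. The causes were not tested.

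Signs turned for values that were not called. Pnpla8 in skin macrophages was -0.0047 with quantile normalisation and -0.42 with all libraries as labelled, where G0s2 was -2.16. Between cell types, equal totals gave Abhd5 -0.41 in depleted lung, Pnpla2 -0.23 and Abhd5 -0.18 in control lung, and Pnpla2 -0.17 in depleted skin, where the smaller pseudocount gave -0.24.

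No label says whether equal replicate numbers mean a shared animal. Between genotypes, which cannot share one, correlations of same-numbered deviations were -0.18 to -0.04 in lung macrophages and -0.07 to 0.07 in lung fibroblasts. In skin fibroblasts they were -0.01 and 0.18. Between cell types of 1 genotype they were -0.01 to 0.06 in depleted lung and -0.12 to 0.04 in control lung. In depleted skin they were 0.01 for number 2 and 0.19 for number 5, beside -0.20 to 0.07 for unlike numbers. A pairing of cell types was therefore not settled. The replicate block used only libraries whose number occurs in both groups. With it the calls became 4 in lung fibroblasts. In skin fibroblasts, on numbers 4 and 5 alone, they became 89, where G0s2 was -0.15, Lipe -0.70 and Plin2 -0.060. Between cell types the block gave 3026 calls in depleted lung, 2685 in control lung and 3898 in depleted skin, the last on numbers 2 and 5 alone. Without the block, on all libraries used, these counts were 2731, 2758 and 2900. The skin fits with the block therefore differ in their libraries as well, and the 2 changes were not told apart. No block could be fitted for skin macrophages by genotype, which share 1 number.

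Leaving out 1 library at a time gave 11 to 70 calls in lung macrophages, 0 to 7 in lung fibroblasts, 0 to 16 in skin fibroblasts (16 without depleted fibroblasts 2) and 0 to 0 in skin macrophages. Between cell types it gave 1961 to 2388 in depleted lung, 2256 to 2559 in control lung and 2280 to 3167 in depleted skin, and 1 to 6 for the difference of lung effects. Log2 values crossed 0 for uncalled genes. In lung macrophages Hilpda spanned -0.066 to 0.38, Mgll -0.12 to 1.25 and Pnpla8 -0.31 to 0.13. In lung fibroblasts Abhd5 spanned -0.59 to 0.26, G0s2 -0.070 to 0.43 and Plin2 -0.14 to 0.39. In skin fibroblasts G0s2 spanned -0.42 to 0.58, Lipe -0.61 to 1.10, Mgll -0.010 to 0.24, Plin2 -0.012 to 0.55, Pnpla2 -0.65 to 0.52 and Pnpla8 -0.11 to 0.29. In skin macrophages Pnpla2 spanned -1.57 to 0.18 and Pnpla8 -0.11 to 0.22. Between cell types Abhd5 spanned -0.39 to 0.47, Lipe -0.41 to 0.062 and Pnpla2 -1.56 to 0.094 in depleted lung, Abhd5 -0.11 to 0.36, Mgll -1.05 to 0.32 and Pnpla2 -0.18 to 0.39 in control lung, and Pnpla2 -0.54 to 1.38 in depleted skin. In lung, 1 read of Pnpla2, Abhd5, Lipe, Mgll or Pnpla8 is worth 2.997 to 6.81 units, which limits what their values there can show.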
